A study of Homo sapiens with 20 samples.

Results

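The respiratory chain of the inner mitochondrial membrane is built from subunits encoded in the nucleus and in mitochondrial DNA, and the nuclear-encoded subunits are described here in IMR-32 cells, an established MYCN-amplified human neuroblastoma line. Genes were taken as members when their symbol followed the naming of the subunits of NADH dehydrogenase (NDUF), succinate dehydrogenase (SDH), the cytochrome bc1 complex (UQCR), cytochrome c oxidase (COX) or ATP synthase (ATP5), when they were protein coding, and when their counts passed the filter on low values. Of 147 symbols that matched, 82 belonged to protein-coding genes, and 77 of these were among the 13729 genes tested. Complex I had 35 members, complex II 4, complex III 9, complex IV 11 with NDUFA4, and complex V 18.

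Complexes I and II pass electrons from NADH and succinate to ubiquinone, complex III passes them on to cytochrome c and complex IV to oxygen. Complexes I, III and IV pump protons as they do so, and complex V uses the returning protons to make ATP. Complex II is the 1 complex whose subunits are all nuclear-encoded, and the other complexes also need subunits made inside the mitochondrion, so that both genomes have to be matched during assembly.

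The cells were wild type by label and were treated for 24 h, with 4 libraries in each of 5 groups. The groups were DMSO, the solvent control, 1 µM Dyngo-4a (the low dose), 2.26 µM Dyngo-4a (the high dose), 2 nM prexasertib, and Dyngo-4a together with prexasertib (the combination), whose doses the sources used here do not give. Dyngo-4a was described as a blocker of dynamin, a membrane GTPase, and prexasertib blocks the checkpoint kinase CHK1; the series title names CHK1 and the nuclease MUS81 as targets. All groups are 1 cell line, and the labels do not say whether the replicates were separate cultures, so p-values measure the spread between these libraries, which may be technical.

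Libraries were made from 3′ ends of mRNA and held 3960885 to 6537843 counts. Levels are given as CPM, counts scaled to the TMM-adjusted library total. Mean levels over the 20 libraries ran from 3.31 (NDUFA7) to 472 CPM (NDUFB9) in complex I, 5.69 (SDHD) to 127 (SDHC) in complex II, 19.9 (UQCRHL) to 555 (UQCRB) in complex III, 3.33 (COX6B2) to 643 (COX6C) in complex IV and 10.5 (ATP5MGL) to 734 (ATP5F1B) in complex V. These are levels from 3′ tag counts with no length scaling, and members with low levels rest on fewer counts. The labels name the tissue as brain and the cell type as neuroblast. Of 10 listed adrenergic neuroblast markers 9 passed the filter, and TH, at a mean of 1.04 CPM in DMSO (n = 4), did not. GATA3, among the highest of these markers, averaged 1030 CPM in DMSO (n = 4). Of the markers of other cell types, 1 of 5 for brain neurons or glia and 1 of 2 for blood passed the filter. PRRX1, a marker of the mesenchymal type, was at 0. Between DMSO and the high dose 5 of 9 tested adrenergic markers fell and 4 rose, 1 of 4 tested mesenchymal-type markers (VIM) rose, and the share of counts from the nuclear RNA MALAT1 went from 1.35% ± 0.417 to 2.96% ± 0.157 (SD, n = 4). The MALAT1 share was 2.33% ± 0.538 in the combination (SD, n = 4). Within every group the members were higher in replicates 2 and 4 than in replicates 1 and 3, for 65 to 71 of the 77 genes, with median differences of 0.15 to 0.29 on the log2 scale. The part of MALAT1 and the markers in the results below was not tested. That of the replicate split was not tested beyond the values given within each pair of replicates and with a term for the split.

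At the high dose of Dyngo-4a, 34 of the 77 members fell against DMSO and 0 rose (edgeR quasi-likelihood test, Benjamini-Hochberg adjusted p below 0.05). Among all genes tested, 12.7% fell and 12.5% rose in the same comparison, against 44.2% and 0% of the members. The median log2 fold change was -0.27 over the members and 0.00 over all genes, and 66 members had a negative and 11 a positive value. For 23 members all 4 high-dose libraries lay below all 4 DMSO libraries, and for 0 all lay above, against 11.5% and 11.8% of all genes. Fewer cells of a kind and less RNA per cell cannot be told apart in such bulk samples.

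The count rested in large part on 1 control library. Without DMSO replicate 4, which held the highest summed member level of its group, 14 members fell and the median log2 fold change was -0.19. No other single library moved the count by over 1.5 times. Within replicates 1 and 3 alone 28 members fell and 0 rose, and within replicates 2 and 4 alone 24 fell and 1 rose. The shares of all genes called in these settings are not given here, so the shifts may not be particular to the members. The 13 members whose calls held without any 1 library were ATP5MC1, ATP5MF, ATP5F1E, NDUFA3, NDUFA8, NDUFA11, NDUFB1, NDUFB2, NDUFB3, NDUFS5, NDUFS6, SDHC and UQCR11.

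**Figure D1:**
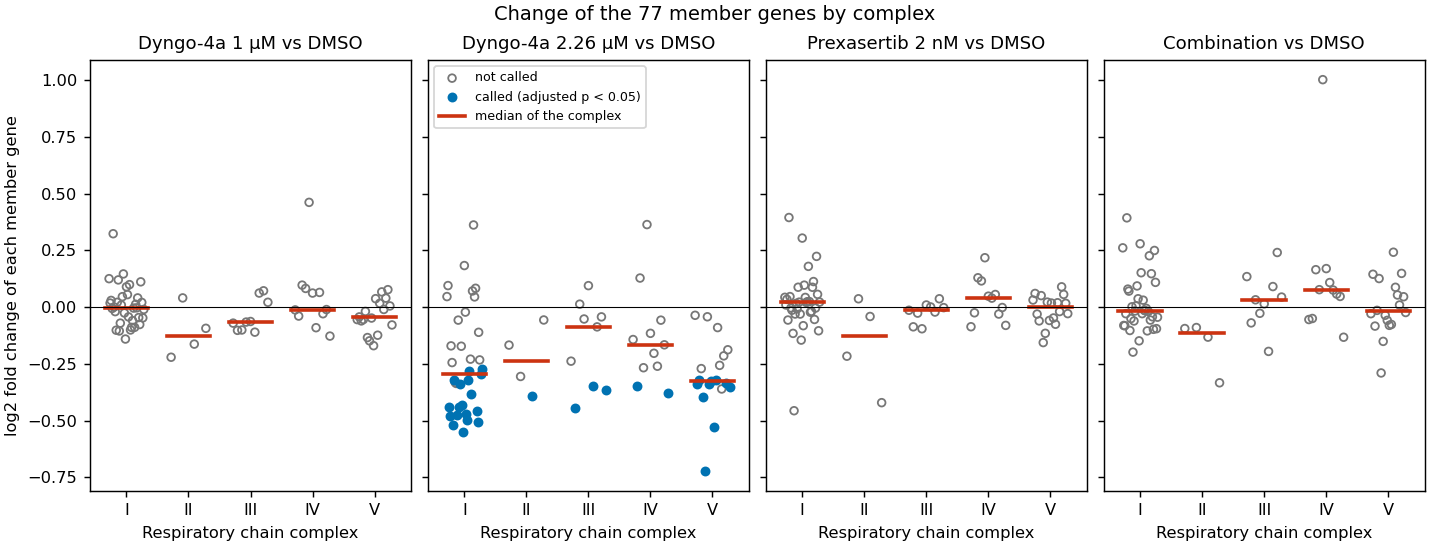
Log2 fold change of each of the 77 members (points, filled where called) by complex, for 4 comparisons with DMSO, with the median of each complex as a line. At the high dose 34 members are called, all below 0, and no member is called in the other 3 panels.

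Complex V had 10 of 18 members lower (median log2 fold change -0.32) and complex I had 18 of 35 (median -0.29). In complex III 3 of 9 fell (median -0.09), in complex IV 2 of 11 (median -0.17) and in complex II 1 of 4 (median -0.24). Without DMSO replicate 4 these counts were 3 in complex V, 9 in complex I, 1 in complex III, 0 in complex IV and 1 in complex II. The difference between complexes was not tested.

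Summed over its members, each complex took up a smaller part of the library at the high dose. The 77 members together held 16027, 16309, 16002 and 19735 CPM in DMSO replicates 1 to 4. The high-dose replicates held 13185, 15098, 13983 and 15518 CPM, so that all 4 lay below the lowest DMSO library. The mean at the high dose was 84.9% of the DMSO mean, or 89.7% without DMSO replicate 4. By complex the high-dose mean was 85.0% of DMSO for I, 79.2% for II, 89.5% for III, 88.7% for IV and 80.9% for V. Without DMSO replicate 4 these were 89.6% for I, 81.1% for II, 94.7% for III, 94.5% for IV and 85.2% for V. The high-dose and DMSO libraries did not overlap for complexes I, II and V, and they overlapped for complexes III and IV. Summed over all members the low dose stood at 98.0% of DMSO, prexasertib at 100.0% and the combination at 101.1%. Complex II stood lower, at 90.4% for the low dose, 95.3% for prexasertib and 91.4% for the combination. Its low-dose libraries (162 to 184 CPM) all lay below its DMSO libraries (186 to 210 CPM), while the combination (170 to 188 CPM) overlapped with DMSO. SDHC held most of the complex II sum, with means of 139 of 196 CPM in DMSO, 106 of 155 CPM at the high dose and 124 of 177 CPM at the low dose. The sums of the complexes and of all members were not tested.

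**Figure D2:**
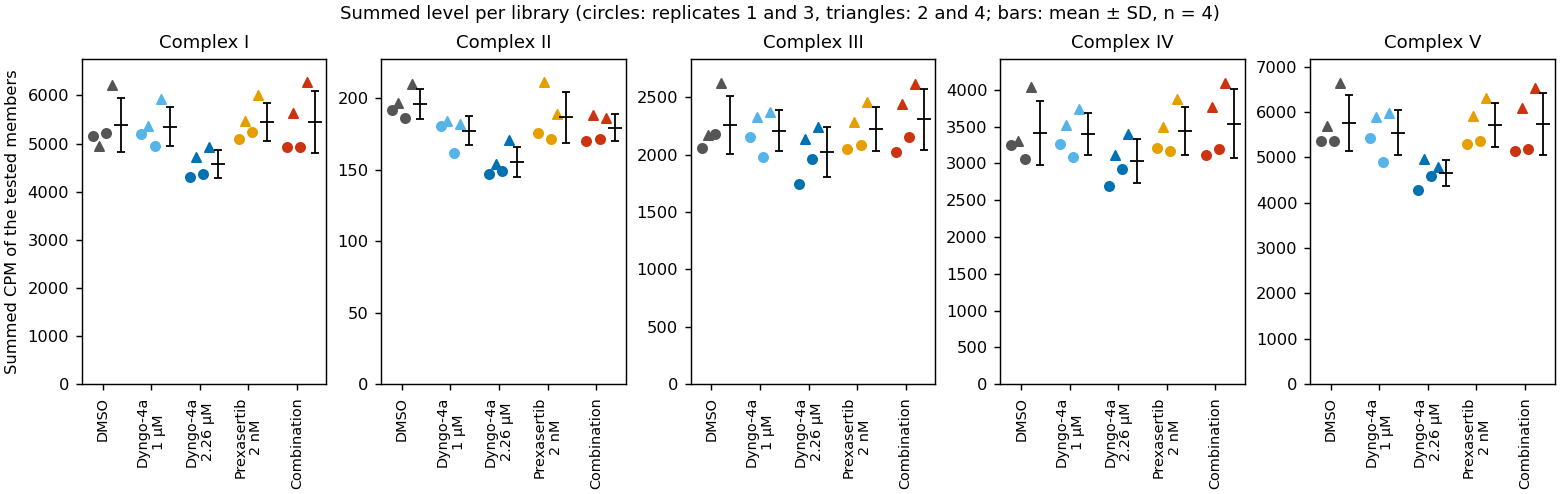
Summed CPM of the tested members of each complex in every library, with the group mean and SD (n = 4), circles for replicates 1 and 3 and triangles for 2 and 4. The high-dose libraries lie below all DMSO libraries for complexes I, II and V, and triangles lie mostly above circles within a group.

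Complex V carried the largest single change, in 1 of the 3 genes for the c subunit. ATP5MC1, ATP5MC2 and ATP5MC3 encode precursors with different import sequences and the same mature protein, which forms the proton-driven ring of the ATP synthase rotor. ATP5MC1 (ENSG00000159199, chr17:48892765-48895871, plus strand, GRCh38) measured 437, 439, 422 and 516 CPM in DMSO replicates 1 to 4. At the high dose it measured 273, 287, 282 and 258 CPM, so the groups did not overlap. It fell by 39.4%, a log2 fold change of -0.72 ± 0.09 (SE, edgeR adjusted p = 2.22e-07). ATP5MC3 (chr2:175176258-175184607, minus strand) went from 461, 484, 430 and 600 CPM to 369, 434, 369 and 390 CPM, with 1 high-dose library above the lowest DMSO library. Its log2 fold change was -0.34 ± 0.11 (edgeR adjusted p = 0.0245), and the call was lost without any of 4 libraries, DMSO replicate 4 and high-dose replicates 1, 3 and 4. ATP5MC2 (chr12:53632726-53677408, minus strand), which had the most counts of the trio, measured 623, 704, 532 and 717 CPM in DMSO and 577, 755, 654 and 516 CPM at the high dose. These ranges overlapped, and the log2 fold change of -0.04 ± 0.12 did not pass the test (edgeR adjusted p = 0.838).

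The share of ATP5MC1 in the 3′ counts of the trio was lower at the high dose. ATP5MC1 gave 28.6% ± 1.47 of the CPM of the trio in DMSO and 21.4% ± 1.36 at the high dose (SD, n = 4), with ranges of 27.0% to 30.5% and 19.4% to 22.4%. In the combination the share was 25.9% ± 1.01, between 24.6% and 26.8%, below every DMSO library and above every high-dose library. It was 28.2% ± 1.54 at the low dose and 27.2% ± 1.49 with prexasertib, both overlapping with DMSO. The share was added after the fall of ATP5MC1 was seen, so it describes these libraries, and no test of it is given. ATP5MC1 has 8 and ATP5MC2 5 pseudogenes by name, and the sources used here do not say how reads shared with such copies were counted.

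**Figure D3:**
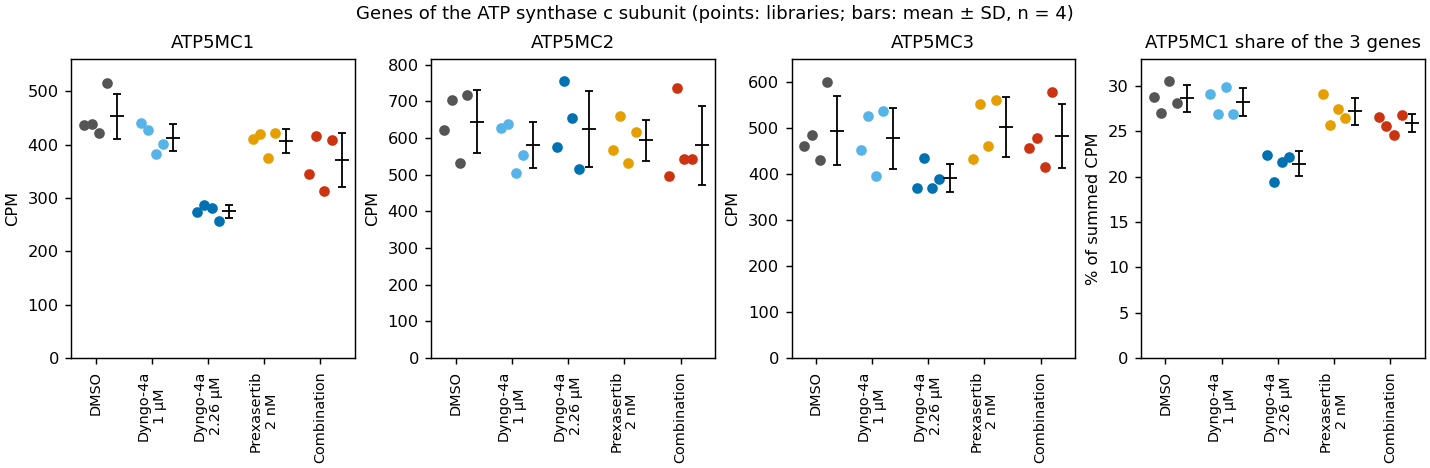
CPM of ATP5MC1, ATP5MC2 and ATP5MC3 and the ATP5MC1 share of their sum (%), in every library by group, with mean and SD (n = 4). ATP5MC1 at the high dose lies between 258 and 287 CPM, below all other groups, while ATP5MC2 overlaps between groups.

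The other parts of the ATP synthase moved less than ATP5MC1. In the catalytic head and central stalk ATP5F1B, the catalytic beta subunit, fell from 646, 811, 667 and 865 CPM to 581, 572, 584 and 624 CPM, with no overlap (log2 fold change -0.34 ± 0.10, edgeR adjusted p = 0.0116). Without DMSO replicate 4 its adjusted p was 0.0766. ATP5F1A, the alpha subunit that alternates with beta in the head, had a log2 fold change of -0.04 ± 0.10 (edgeR adjusted p = 0.836), with 284, 282, 279 and 325 CPM in DMSO and 250, 292, 283 and 316 CPM at the high dose. The small ATP5F1E of the central stalk fell by 0.39 on the log2 scale (edgeR adjusted p = 0.00216). Of the subunits of the peripheral stalk, which holds the head still, ATP5PO and ATP5PD fell, and both calls were lost without DMSO replicate 4. Among the small membrane subunits ATP5MF fell most, from 157, 173, 165 and 203 CPM to 119, 116, 130 and 119 CPM, without overlap (log2 fold change -0.53 ± 0.10, edgeR adjusted p = 0.000134). ATP5F1C, ATP5MG and ATP5ME were called with smaller changes of -0.32 to -0.33 on the log2 scale, and each call was lost without any 1 of 5 libraries.

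In complex I the accessory subunits made up most of the list that fell. Of the 6 tested catalytic core subunits, which bind flavin or iron-sulphur clusters and carry the electrons, 1 fell (NDUFV1, log2 fold change -0.29), and its call was lost without any of 3 libraries. Of the other 29 subunits, 17 fell. The median log2 fold change was -0.03 over the core and -0.33 over the others. This grouping was made after the values were seen and was not tested.

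NDUFS6, an accessory subunit at the base of the peripheral arm, measured 218, 196, 214 and 227 CPM in DMSO. At the high dose it measured 148, 145, 140 and 168 CPM, below every control library (log2 fold change -0.51 ± 0.09, edgeR adjusted p = 4.74e-05). NDUFB3, in the distal membrane arm, went from 130, 133, 134 and 160 CPM to 78.7, 98.1, 99.6 and 104 CPM, also without overlap, with the largest change in complex I (log2 fold change -0.55 ± 0.12, edgeR adjusted p = 0.000729). NDUFA3, a small subunit of the membrane arm, went from 78.6, 68.4, 68.5 and 99.1 CPM to 47.3, 55.5, 59.5 and 58.1 CPM (log2 fold change -0.52 ± 0.12, edgeR adjusted p = 0.00147). The groups did not overlap for it either. Of the other NDUFB genes, all of the membrane arm, NDUFB1, NDUFB2, NDUFB6, NDUFB7, NDUFB8, NDUFB9 and NDUFB10 were called lower, with log2 fold changes of -0.28 to -0.50. The call of NDUFB7 was lost without any 1 of 6 libraries, and its DMSO values ran from 42.1 to 93.2 CPM. NDUFB4, NDUFB5 and NDUFB11 were not called. Of the remaining accessory subunits NDUFA5, NDUFA8, NDUFA11, NDUFA12, NDUFC2, NDUFS5 and NDUFV3 fell by 0.27 to 0.48 on the log2 scale.

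In complex II, SDHC, the membrane anchor that binds haem, fell, from 140, 138, 129 and 151 CPM in DMSO to 105, 109, 96.5 and 115 CPM without overlap (log2 fold change -0.39 ± 0.09, edgeR adjusted p = 0.00138). The iron-sulphur subunit SDHB measured 19.0 to 25.5 CPM in DMSO and 12.2 to 22.3 CPM at the high dose, with overlap and a log2 fold change of -0.31 ± 0.18 (edgeR adjusted p = 0.227). The flavoprotein SDHA (log2 fold change -0.17 ± 0.15) and the second anchor SDHD (-0.06 ± 0.27) did not pass the edgeR test either, with adjusted p of 0.441 and 0.905. SDHD rested on 14 to 47 counts per library, so a moderate difference was not detectable at this depth, and SDHA and SDHD have 4 and 6 pseudogenes by name.

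In complex III the Rieske iron-sulphur protein UQCRFS1 and the small subunits UQCRQ and UQCR11 fell. UQCR11 went from 222, 248, 196 and 296 CPM to 165, 180, 182 and 180 CPM (log2 fold change -0.45 ± 0.11, edgeR adjusted p = 0.00177), and UQCRQ from 488, 481, 544 and 653 CPM to 399, 413, 389 and 479 CPM (-0.37 ± 0.11, edgeR adjusted p = 0.0122). The groups overlapped for neither, but the calls of UQCRQ and UQCRFS1 were lost without DMSO replicate 4. The core proteins UQCRC1 (log2 fold change -0.05 ± 0.10) and UQCRC2 (0.09 ± 0.09) and the small subunit UQCRB (0.01 ± 0.10) did not pass the edgeR test, with adjusted p of 0.757, 0.503 and 0.94. UQCRH and its near-identical copy UQCRHL, whose reads the counting could have split, had log2 fold changes of -0.09 and -0.04 and did not pass it.

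In complex IV, COX5B, a subunit on the matrix side, and NDUFA4, named for complex I and found in complex IV, fell. NDUFA4 measured 419, 482, 362 and 585 CPM in DMSO and 351, 362, 349 and 361 CPM at the high dose, so the groups stood apart by less than 1 CPM (log2 fold change -0.38 ± 0.11, edgeR adjusted p = 0.0127). COX5B had a log2 fold change of -0.35 ± 0.11 (edgeR adjusted p = 0.0137), and both calls were lost without DMSO replicate 4. Of the ubiquitous forms of subunits with tissue isoforms, COX6A1 (log2 fold change 0.13), COX6B1 (-0.27), COX7A2 (-0.20), COX7B (-0.26) and COX8A (-0.17) were not called. Their partners of muscle or testis, COX6A2, COX7A1 and COX7B2, had 0 counts in all 20 libraries, which allows up to 3 counts or 0.757 CPM in the smallest library. COX8C had 21 counts in all libraries together, and the sperm form COX6B2 passed the filter at 0 to 34 counts per library with no call. NDUFV2, a core subunit of complex I, was the fifth coding gene not tested, with 1 to 13 counts per library.

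**Figure D4:**
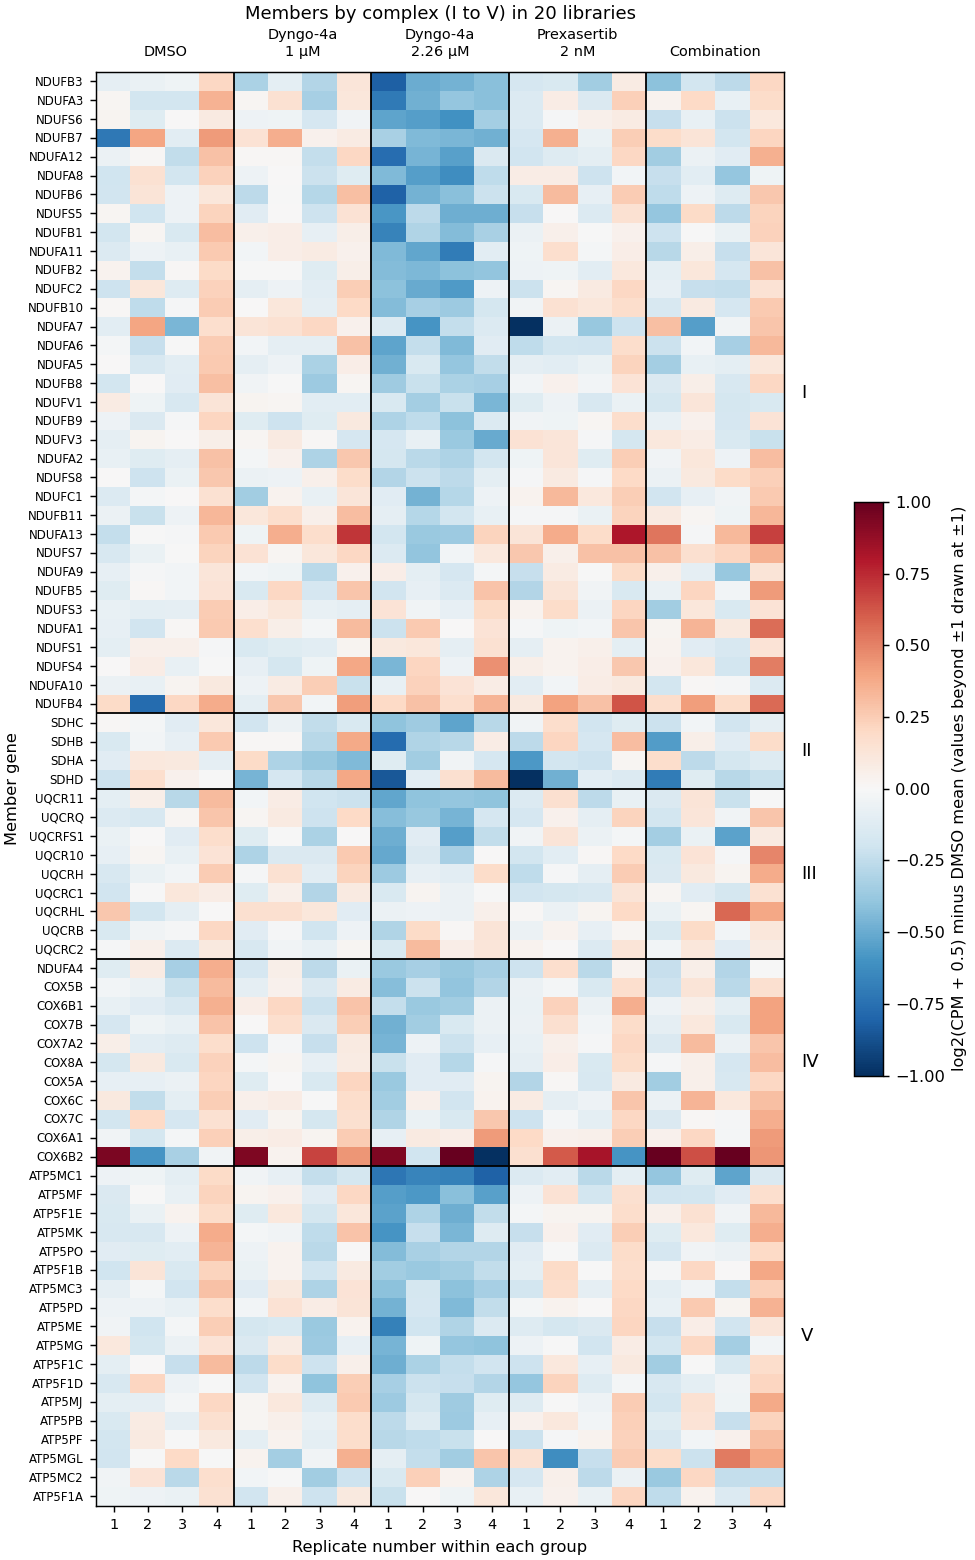
Level of the members, all but 1 that is not reported here, in each of the 20 libraries as log2(CPM + 0.5) minus the DMSO mean, members ordered by complex and, within it, by their change at the high dose. The high-dose columns are mostly blue in complexes I and V, and replicate 4 of DMSO is mostly red.

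The upstream sequence of 4 members was read from RefSeq (GRCh38.p14) as the 250 bases before the transcription start, 5′ to 3′ on the coding strand. ATP5MC1 and ATP5MC2 are shown because they encode 1 mature protein and the first was called and the second was not, and NDUFA3 and UQCR11 because they fell and hold matches to the motif of NRF1, a known activator of respiratory chain genes. ATP5MC2 has 3 starts listed, of which the first was used. Capitals mark matches on either strand to 4 motifs, NRF1, ETS factors such as GABP (CCGGAAG), YY1 (AAGATGGCG) and the cyclic AMP response element (TGACGTCA).
ATP5MC1 (chr17:48892537-48892786, plus strand): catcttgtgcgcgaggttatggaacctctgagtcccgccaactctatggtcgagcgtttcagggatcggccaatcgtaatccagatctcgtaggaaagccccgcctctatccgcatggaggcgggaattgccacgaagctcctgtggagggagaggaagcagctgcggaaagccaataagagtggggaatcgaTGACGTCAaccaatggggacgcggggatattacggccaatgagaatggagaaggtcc
ATP5MC2 (chr12:53676084-53676333, minus strand): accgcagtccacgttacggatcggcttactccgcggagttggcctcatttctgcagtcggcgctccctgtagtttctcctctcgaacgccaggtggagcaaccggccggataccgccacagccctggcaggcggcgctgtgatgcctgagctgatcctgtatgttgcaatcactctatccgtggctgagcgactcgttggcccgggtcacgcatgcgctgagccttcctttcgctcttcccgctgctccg
NDUFA3 (chr19:54102605-54102854, plus strand): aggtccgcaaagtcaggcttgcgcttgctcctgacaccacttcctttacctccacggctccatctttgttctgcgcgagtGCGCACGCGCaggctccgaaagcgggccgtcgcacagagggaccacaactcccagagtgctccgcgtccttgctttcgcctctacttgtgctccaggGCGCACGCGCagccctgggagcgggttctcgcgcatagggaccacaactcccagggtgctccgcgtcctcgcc
UQCR11 (chr19:1605463-1605712, minus strand): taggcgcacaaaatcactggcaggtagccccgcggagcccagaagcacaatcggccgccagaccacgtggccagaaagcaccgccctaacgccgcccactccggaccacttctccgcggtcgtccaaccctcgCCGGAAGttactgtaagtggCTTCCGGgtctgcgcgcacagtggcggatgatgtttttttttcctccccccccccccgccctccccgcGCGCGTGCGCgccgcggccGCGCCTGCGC

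The ATP5MC1 window holds the cyclic AMP response element 50 to 57 bases before the start, and the ATP5MC2 window holds none of the 4 motifs, though it does hold the shorter NRF1 core GCATGCGC. NDUFA3 has 2 NRF1 matches, and UQCR11 has 2 NRF1 and 2 ETS matches. A window of 300 bases, with 50 bases after the start, was found for 62 of the 77 members. NRF1 matches occurred in 16 of them (25.8%), against 14.0% of 9531 tested coding genes and 5.78% of all 35116 windows. ETS matches occurred in 32.3% of members, 23.3% of tested genes and 10.3% of all windows, YY1 matches in 14.5%, 4.98% and 1.75%, and the cyclic AMP response element in 8.06%, 4.19% and 1.85%. Of the members that fell at the high dose 9 of 26 held an NRF1 match, 7 an ETS match and 1 a YY1 match, against 7, 13 and 8 of the 36 others. The cyclic AMP response element was held by 3 of the 26 and by 2 of the 36. Of 14 patterns looked at, these 4 were kept after the values were seen. The other 10 included a shorter NRF1 core, GCATGCGC (22.6% of members and 6.71% of tested coding genes), and a looser YY1 pattern, AANATGGCG (25.8% and 8.59%). The CCAAT box, CCAAT, occurred in 35.5% of members and 44.1% of tested genes, and the first letters of the cyclic AMP response element, TGACG, in 40.3% and 41.5%. The SP1 pattern GGGCGG occurred in 64.5% and 78.8%, the ATF4 pattern TGATGNAA in 3.23% and 2.60%, and the ZNF143 pattern in 6.45% and 2.84%. The E-box, CACGTG, occurred in 7 of the 62 members (11.3%) and in 13.01% of tested genes. The hypoxia pattern NACGTG, which overlaps with it, was found in 27.4% and 32.8%, and the antioxidant pattern TGACNNNGC in 19.4% and 19.5%. A match describes letters in the window and is no measure of binding.

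Genes that build or feed the chain did not all follow the subunits at the high dose. Of 50 tested assembly factors, which fold, metallate and join the subunits, 15 fell and 2 rose, against 12.7% and 12.5% of all genes. Without DMSO replicate 4 the counts were 10 lower and 2 higher. Without high-dose replicate 3, and within each pair of replicates alone, they were 10 and 1. NDUFAF3 and NDUFAF8, which act in complex I assembly, had log2 fold changes of -0.86 ± 0.11 and -0.72 ± 0.10 (edgeR adjusted p = 5e-07 and 5.94e-07). NDUFAF3 went from 107, 112, 116 and 134 CPM to 62.1, 65.7, 58.0 and 73.8 CPM, without overlap. COA3, a complex IV factor, fell by 0.60 and LYRM7, which matures the Rieske protein, by 0.47 on the log2 scale. The 2 that rose, named after their values were seen, were ECSIT (0.48 ± 0.13) and COX10 (0.45 ± 0.15), and COX10 was no longer called without any 1 of 5 libraries.

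Among 18 genes of electron carriers and coenzyme Q synthesis 3 fell and 0 rose, near the 12.7% that fell among all genes, and 1 fell without DMSO replicate 4. CYCS, cytochrome c, went from 276, 324, 321 and 358 CPM to 221, 240, 189 and 285 CPM, with 1 high-dose library above the lowest control (log2 fold change -0.45 ± 0.10, edgeR adjusted p = 0.00114). ETFB and DHODH, which feed electrons to ubiquinone through other routes, had log2 fold changes of -0.48 ± 0.15 and -0.92 ± 0.30, and both calls were lost without DMSO replicate 4. Of 17 tricarboxylic acid cycle enzymes other than the SDH genes 0 were called by edgeR, DESeq2 or limma-voom, 2 had an unadjusted edgeR p below 0.05, and the median log2 fold change was -0.03. Of 7 subunits that the symbol rule leaves out, NDUFAB1, the acyl carrier protein, had a log2 fold change of -0.27 ± 0.10 (edgeR adjusted p = 0.0384, lost without any 1 of 5 libraries). NDUFA4L2, a paralogue of NDUFA4 known to be induced by hypoxia, rose from 0.25 to 0.76 CPM in DMSO to 3.88 to 8.34 CPM at the high dose, without overlap (edgeR adjusted p = 4.36e-07). Of the 13 subunits encoded in mitochondrial DNA, 0 were found by symbol in the deposited counts, so they were not analysed here.

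**Figure D5:**
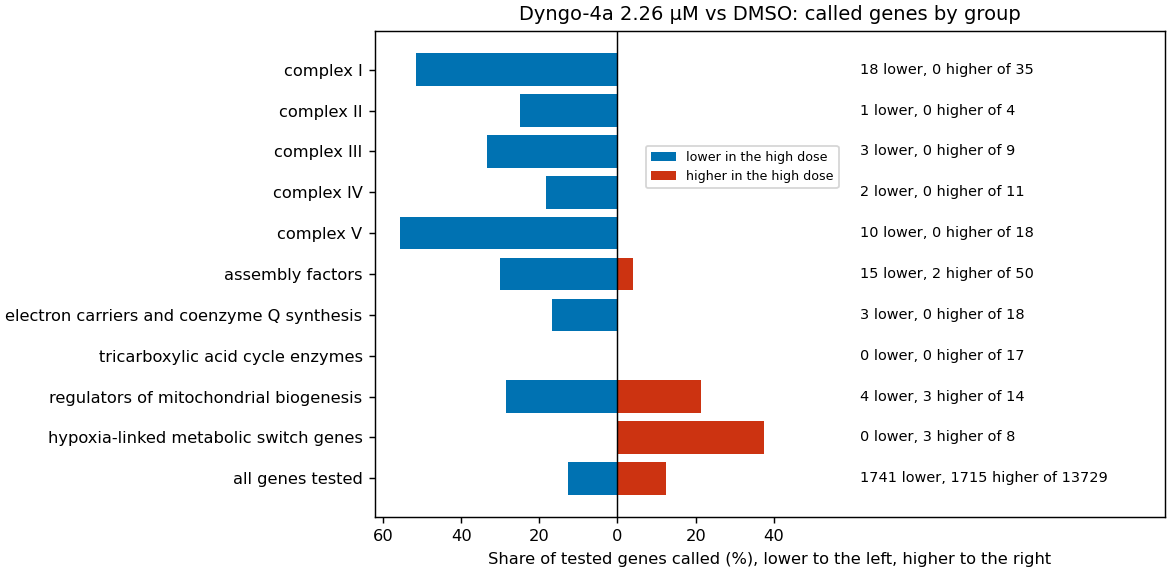
Share of tested genes called lower (left) and higher (right) at the high dose against DMSO, by complex and by gene list, with all genes tested at the bottom. Complexes I and V have the longest bars to the left, and no member of any complex is called higher.

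At 1 µM Dyngo-4a 0 of 77 members were called against DMSO by edgeR, DESeq2 or limma-voom, against 0.262% of all genes by edgeR, and 0 had an unadjusted p below 0.05, against 7.57%. Member log2 fold changes ran from -0.22 to 0.46 with a median of -0.01, and the smallest p-values belonged to NDUFA13, SDHC and SDHA (adjusted p of 0.717 to 0.794). The high dose against the low dose gave 25 members lower and 0 higher, against 10.1% of all genes in either direction alone, with a median of -0.24 against -0.01. They were 15 members of complex I, 2 of III, 2 of IV and 6 of V. ATP5MC1 had the smallest p, with 442, 428, 384 and 401 CPM at the low dose and no overlap with the high dose (log2 fold change -0.59 ± 0.09, edgeR adjusted p = 1.26e-05). ATP5MF (-0.57 ± 0.10) and NDUFS6 (-0.43 ± 0.09) came next, with edgeR adjusted p of 7.6e-05 and 0.000566. SDHC, at 117 to 134 CPM at the low dose, had a log2 fold change of -0.23 ± 0.09 that did not pass the edgeR test (adjusted p = 0.0719). With the replicate block described next it was called (edgeR adjusted p = 0.0143). With the replicate number as a block, which pairs the libraries in this comparison, 45 members were lower. Without the block, the count was 15 without low-dose replicate 2, 14 without low-dose replicate 4 (13 lower, 1 higher) and 16 without high-dose replicate 3. The shares of all genes called in these settings are not given here.

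Prexasertib alone left the members near DMSO. No member was called by edgeR, DESeq2 or limma-voom, against 0% of all genes by edgeR, and 2 (NDUFA13 and NDUFS7) had an unadjusted p below 0.05, against 3.77%. The median member log2 fold change was 0.00, with a range of -0.46 to 0.39.

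In the combination 0 of 77 members were called against DMSO by edgeR, against 6.3% of all genes, and 4 had an unadjusted p below 0.05, against 19.5%. The median member log2 fold change was -0.01. ATP5MC1 was nearest to a call, at 345, 416, 313 and 410 CPM, below every DMSO library (log2 fold change -0.29 ± 0.09, edgeR adjusted p = 0.0502), and it was the 1 member called lower by DESeq2 and by limma-voom. NDUFS7 (0.25 ± 0.11) and NDUFA1 (0.26 ± 0.11) followed, with edgeR adjusted p of 0.163 and 0.19. Against prexasertib alone and against the low dose alone 0 members were called by the 3 tools, where edgeR called 3.44% and 3.85% of all genes. In both, 0 members had an unadjusted p below 0.05, against 15.7% and 14.8% of all genes. The departure of the combination from the sum of prexasertib and the low dose on the log scale, which assumes that the combination used those doses, gave 0 members by the 3 tools and 0 at an unadjusted p below 0.05, against 0.284% and 6.56% of all genes.

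A direct comparison of the combination with the high dose was added after the values were seen, and the doses in it are not matched. In the combination 32 members were higher and 0 lower, against 10.4% and 10.1% of all genes, with a median log2 difference of 0.28 against 0.01. For 23 members all combination libraries lay above all high-dose libraries and for 0 below, against 10.1% and 10.6% of all genes. The 32 called members were 17 of complex I, 1 of II, 3 of III, 3 of IV and 8 of V. ATP5F1E had the smallest p, at 679, 728, 639 and 822 CPM in the combination and 451, 527, 468 and 553 CPM at the high dose, without overlap (log2 difference 0.52 ± 0.10, edgeR adjusted p = 0.000135). ATP5PD (0.48 ± 0.10), NDUFB2 (0.47 ± 0.10) and NDUFA3 (0.59 ± 0.12) followed, with edgeR adjusted p of 0.000403, 0.000463 and 0.000499. ATP5MC1 was also higher in the combination (0.43 ± 0.09, edgeR adjusted p = 0.000733), and ATP5MC2 was not called (-0.11 ± 0.12, edgeR adjusted p = 0.577). This comparison and that with DMSO share the high-dose libraries, so they are not independent. With the replicate block, which pairs these libraries, 52 members were higher. The count was 12 without combination replicate 4, 18 without combination replicate 2, 16 and 19 without high-dose replicates 1 and 3, and 15 within replicates 1 and 3 alone. The shares of all genes called in these settings are not given here.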

How the data were processed

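The 20 libraries were 3′ mRNA libraries with molecular barcodes, made with QuantSeq from IMR-32 cells per the labels. The authors deposited raw whole-number counts for 58787 genes, and per the submitters' processing notes FastQC 0.11.7, STAR 2.7.2b, edgeR 3.36.0, limma 3.50.3 and GRCh38 were used. The sources used here do not give the annotation, the strand setting or how barcodes were handled, and antisense or overlapping genes may share reads. Of the 77 members, 30 overlap another gene on their strand in GENCODE 29. Counting error alone allows 3 counts behind a 0, 0.459 to 0.757 CPM by library.

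Members and gene lists were chosen with earlier results of these data known. Symbols came from a reference table, gene types and coordinates from GENCODE 29. Genes were filtered with filterByExpr (minimum count 10, minimum total 15; 13729 genes kept), scaled by TMM and fitted with edgeR 4.0.16 (robust quasi-likelihood, R 4.3.3) over all 20 libraries with 1 term per group. p-values were two-sided and adjusted across the tested genes separately in 9 comparisons (threshold 0.05). The SE of a log2 fold change is its size divided by the square root of F. Scripts were tested on simulated data. The values of 1 member and 1 marker gene are not reported here, and both stay in the counts of their groups. Alternatives were library sizes alone, relative log expression factors, other filters, DESeq2 1.42.0, limma-voom 3.58.1, the compared groups alone, a replicate block, a term for the replicate split and leaving out each library.

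Named were members called (at most the 30 with the smallest p, or the 3 smallest where none was called), the SDH, ATP5MC, UQCRH and isoform genes, the highest and lowest member of each complex, and up to 4 called genes per other list; others, the parts of complexes and the members given per library were picked after their values were seen. Replicate numbers were taken to pair libraries where every pair's correlation of deviations from the group mean was over 0.1. This held for the low dose, prexasertib, high against low dose (0.110 to 0.298) and the combination against prexasertib, low dose and high dose (0.172 to 0.319), and not for the high dose or the combination against DMSO (lowest 0.0271 and 0.0274).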

Additional observations from a re-analysis of the deposited data

Results flagged for a closer look

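Of 130 groups of 4 libraries checked (summed levels and the members given per library), 6 held a library far from the other 3, and chance gives about 1 in 20. In DMSO the highest library, replicate 4, stood apart for the summed level of all members (19735 CPM), for NDUFB3 (160 CPM) and for ATP5F1A (325 CPM). At the low dose the lowest library stood apart for the summed level of complex II, at 162 CPM. The same was true of the lowest low-dose library for NDUFS6 (189 CPM) and the lowest high-dose library for UQCR11 (165 CPM).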

How the results depend on the processing

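No result reversed under any alternative. The members called at the high dose against DMSO numbered 33 to 36 under other scalings, filters and tools, and 14 to 33 without 1 library, with 14 without DMSO replicate 4. With a term for the replicate split 44 were called in that comparison. For the combination against DMSO 1 member, ATP5MC1, was called with library sizes alone, no low-count filter, DESeq2, limma-voom and a term for the replicate split, 3 within replicates 1 and 3, and 0 to 1 without 1 library. High against low dose gave 39 with the split term and 14 to 30 without 1 library. The combination against the high dose gave 15 within replicates 1 and 3 and 12 to 38 without 1 library. Calls held without any 1 library for 13 of 34 members at the high dose, 10 of 25 against the low dose and 10 of 32 for the combination against the high dose.

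With the replicate block, 45 members were called for high against low dose, 52 for the combination against the high dose, 47 at the high dose and 4 for the combination against DMSO (3 higher, 1 lower). By the rule on correlations the numbers were not taken to pair the libraries in the last 2. In both, replicate 2 alone was under 0.1 (0.0271 and 0.0274), and the other replicates ran from 0.106 to 0.258. Shared batches by number are therefore not excluded there. Where the numbers were taken to pair libraries, 0 members were called without and with the block for the low dose, prexasertib, and the combination against prexasertib and against the low dose. In the comparisons of the high dose and of the combination with DMSO, 2 and 3 of 4 pairs correlated best with their own number. Depth limits the members with few counts, such as SDHD, NDUFA7 and COX6B2. The cause of these shifts was not tested. Shares of all genes called under each alternative are not given, so whether the shifts in the counts are particular to the members cannot be told.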

Other observations

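Regulators of mitochondrial biogenesis moved both ways at the high dose, with 4 of 14 lower and 3 higher than in DMSO, against 12.7% and 12.5% of all genes. TFAM, which packages and transcribes mitochondrial DNA, had a log2 fold change of -0.35 ± 0.09 (edgeR adjusted p = 0.00271), and the coactivator PPRC1 one of -0.38 ± 0.11 (adjusted p = 0.00885). PPARGC1A, the coactivator PGC-1 alpha, rose by 0.89 ± 0.24 (adjusted p = 0.00447), from 6.88 to 9.27 CPM in DMSO to 8.09 to 19.2 CPM, with overlap. TFB2M, a mitochondrial transcription factor, had -0.55 ± 0.17 (adjusted p = 0.0142), a call lost without any of 3 libraries. Without DMSO replicate 2 the counts were 2 lower and 1 higher, and without DMSO replicate 1 they were 4 and 1. Within replicates 1 and 3 alone 1 of the 14 was called and within replicates 2 and 4 alone 2 were.

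Among 8 genes of the hypoxia-linked metabolic switch 3 rose and 0 fell at the high dose, against 12.5% and 12.7% of all genes. BNIP3 and BNIP3L, receptors for the removal of mitochondria, had log2 fold changes of 0.44 ± 0.10 and 0.40 ± 0.11, and PDK1, which restrains pyruvate entry into the mitochondrion, 0.61 ± 0.16 (edgeR adjusted p = 0.00128, 0.00568 and 0.00531). At the low dose, where no member was called, PDK1 (0.71 ± 0.16, adjusted p = 0.0432) and LDHA, lactate dehydrogenase A (0.62 ± 0.11, adjusted p = 0.00206), were called higher. The PDK1 call was lost without any 1 of 7 of the 8 libraries. With the replicate block, which pairs these libraries, BNIP3 was also called higher at the low dose (log2 fold change 0.34, edgeR adjusted p = 0.0302), making 3 of the 8 genes. In the combination BNIP3 (0.61 ± 0.10) and LDHA (0.44 ± 0.11) rose against DMSO, and the complex I assembly factors NDUFAF2 (-0.42 ± 0.11) and NDUFAF4 (-0.40 ± 0.11) fell, with edgeR adjusted p of 7.93e-05, 0.00874, 0.0107 and 0.0198. The call of LDHA in the combination was lost without DMSO replicate 2 or combination replicate 4, that of NDUFAF2 without combination replicate 1 or 3, and that of NDUFAF4 without any 1 of 4 libraries.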
